A study of Mus musculus with 48 samples.

Results

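Toll-like receptors sense microbial and damage-associated molecules, and the genes of their core machinery were followed here through the heart and its lymphatic and blood vessels. The set held 10 genes of the 54752 in the matrix, chosen by name: the receptors Tlr2, Tlr3, Tlr4, Tlr7 and Tlr9, the co-receptors Cd14 and Ly96, the adaptors Myd88 and Ticam1, and the kinase Irak2. Each was matched by its Ensembl identifier to 1 row. The rule names the genes and uses no measured value, but the set was drawn up with earlier results of these data known.

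The data were 48 RNA-seq libraries of Prox1-eGFP mice, 12 for each of 4 cell populations: cardiomyocytes, cardiac blood endothelial cells (heart BECs), and lymphatic endothelial cells (LECs) from heart and diaphragm. In each population 4 libraries came from ctrl mice that received bovine serum albumin, and 5 from mice on angiotensin II infusion with the same albumin (angII). Another 3 came from mice that received angiotensin II together with VEGFCc156s, a form of VEGFC selective for VEGFR3 (angII+VEGFC). The infusions lasted 5 to 6 weeks, and the mice were 8 to 16 months old by the labels, but a matter of weeks by the study's methods. All groups, controls included, carried the knock-in that places eGFP behind Prox1, the master transcription factor of lymphatic identity, on a background labelled C57BL/6, and the mice were male. Endothelial cells were sorted as live, CD45.2-negative and CD31-positive, with eGFP separating LECs from BECs, while cardiomyocytes were pelleted at low speed without a sort. The question was how the genes of this pathway were distributed over the populations, and whether angiotensin II or added VEGFCc156s changed them.

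Tlr2 and Tlr4 act at the cell surface and Tlr3, Tlr7 and Tlr9 in endosomes, where they bind nucleic acids. Tlr4 recognises lipopolysaccharide together with Ly96 (also called MD-2), after Lbp and Cd14 have handed the ligand over. Myd88 couples all of these receptors except Tlr3 to the Irak kinases and NF-κB, and Ticam1 (also called TRIF) carries the signal of Tlr3 and of internalised Tlr4 to interferon genes. In endothelium the pathway is known for inducing chemokines and leukocyte adhesion molecules.

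The values are TPM, a length-corrected relative abundance scaled to 1 fixed total per library. They keep no read counts, so the depth behind each value is unknown, and no counting interval could be given. The libraries held between 12924 and 25896 genes at 1 TPM or more. The populations carried the markers of their labels: the 7 lymphatic markers summed to 18170 to 32107 TPM in heart LECs and to 22654 to 43488 TPM in diaphragm LECs, against 216 to 708 TPM in heart BECs. The 6 blood endothelial markers summed to 13281 to 20858 TPM in heart BECs, but also to 1249 to 7802 TPM in heart LECs. In diaphragm LECs that sum was 479 to 1476 TPM. Fibroblast markers summed to 686 to 1573 TPM in heart LECs, 123 to 991 in diaphragm LECs and 416 to 3614 in heart BECs. In cardiomyocyte libraries they summed to 2116 to 4672 TPM. The 6 cardiomyocyte markers summed to 7696 to 20275 TPM in the cardiomyocyte libraries, which also held all 4 general endothelial markers at 222 to 371 TPM and all 12 macrophage markers at 832 to 2865 TPM. In the LEC and BEC libraries the macrophage sum was between 33.1 and 437 TPM.

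The promoters shown are those of the members whose levels set heart LECs and heart BECs apart most, Myd88 and Irak2, and of Tlr2. The Tlr2 difference went the other way but did not pass the threshold used below. Cd14 passed it in that direction, but no promoter was available for Cd14. RefSeq (GRCm38.p6) gave a promoter for 6 of the 10 members, and the bases below lie upstream of the RefSeq start, without bases that the GENCODE annotation gives as untranslated exon. Capitals mark matches, on either strand, to the NF-κB consensus, to the STAT motif TTCNNNGAA, to the interferon response core GAAANNGAA, or to TATAAA.
Myd88, chr9:119340042-119340268, minus strand: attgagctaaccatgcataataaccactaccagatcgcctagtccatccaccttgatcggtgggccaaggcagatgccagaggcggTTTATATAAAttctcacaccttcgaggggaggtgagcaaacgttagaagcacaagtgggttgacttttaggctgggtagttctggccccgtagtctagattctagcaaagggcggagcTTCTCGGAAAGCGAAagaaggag
Irak2, chr6:113638217-113638466, plus strand: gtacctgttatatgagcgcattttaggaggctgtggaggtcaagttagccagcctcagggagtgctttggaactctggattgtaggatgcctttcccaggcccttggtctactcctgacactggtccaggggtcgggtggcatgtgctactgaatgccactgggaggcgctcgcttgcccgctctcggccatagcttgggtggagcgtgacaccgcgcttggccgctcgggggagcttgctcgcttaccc
Tlr2, chr3:83841768-83841858, minus strand: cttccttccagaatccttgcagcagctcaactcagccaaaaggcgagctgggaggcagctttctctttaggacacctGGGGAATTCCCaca
In Myd88 the STAT motif began 46 bases before the start and overlapped the interferon response core, which began 40 bases before it, and a TATAAA overlapped its reverse complement further upstream. Tlr2 held overlapping NF-κB matches that began 173 and 172 bases before its start, and no motif searched was found in the 250 bases before Irak2. All positions count from the RefSeq start. Of the 250 bases before it, 91 were shown for Tlr2, 227 for Myd88 and 250 for Irak2. The Myd88 stretch lies within the annotated span of its gene. Over the 250 bases before the starts of 32817 promoters, 7.25% held the NF-κB consensus, 7.01% the STAT motif, 7.12% the interferon response core and 12.4% TATAAA on either strand. These matches describe the sequence only.

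On GRCm38, the annotation placed Tlr2 at chr3:83836272-83841767, Tlr3 at chr8:45395665-45411080, Myd88 at chr9:119335934-119341411 and Ticam1 at chr17:56269319-56276786, all on the minus strand. Tlr4 at chr4:66827584-66930284, Irak2 at chr6:113638467-113695026 and Ly96 at chr1:16688051-16709611 lay on the plus strand. The values cover each whole gene. Myd88 overlaps 2 protein-coding neighbours, Slc22a14 and Acaa1a, Irak2 overlaps 3 predicted loci without a gene name of their own and Tlr3 overlaps 1 antisense gene. The library kit was not stated to keep strand, so reads in the shared stretches cannot be told apart.

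Across the 4 populations the receptors followed different orders. Tlr3, the receptor for double-stranded RNA, had a mean of 27.7 ± 3.54 TPM in heart BECs, 22.1 ± 6.95 in diaphragm LECs, 20.4 ± 4.52 in heart LECs and 7.68 ± 1.92 in cardiomyocytes (SD, n = 12 libraries each). Its ranges in the 3 endothelial populations overlapped, while the highest cardiomyocyte library (9.85 TPM) lay below the lowest endothelial library (12.3 TPM). Tlr4 was also highest in heart BECs, with 10.6 ± 2.57 TPM, followed by cardiomyocytes with 5.58 ± 1.30, heart LECs with 4.81 ± 1.20 and, last, diaphragm LECs with 1.82 ± 1.23 (SD, n = 12). Every heart BEC library exceeded every heart LEC library, at 7.25 to 15.9 TPM against 2.84 to 6.85 TPM, whereas cardiomyocytes and heart LECs overlapped.

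Tlr2, which recognises bacterial lipoproteins, had a mean of 22.2 ± 9.70 TPM in cardiomyocyte libraries, 15.1 ± 4.59 in heart LECs, 10.2 ± 1.61 in heart BECs and 9.06 ± 3.26 in diaphragm LECs (SD, n = 12). Each population overlapped its neighbour in this order. The endosomal receptors of single-stranded nucleic acids were low. Tlr7 reached a mean of 1.51 ± 0.587 TPM in cardiomyocyte libraries and at most 0.495 TPM in an endothelial population, where 1 heart LEC library of the angII group stood at 3.67 TPM. Tlr9 did not exceed 0.559 TPM in any library and was listed at 0 in the median library of all 3 endothelial populations.

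Cd14 and Ly96, the partners of Tlr4, were not ordered like the receptor itself. Cd14 had a mean of 171 ± 103 TPM in cardiomyocyte libraries, 77.1 ± 36.6 in diaphragm LECs, 41.6 ± 26.1 in heart LECs and 18.2 ± 5.43 in heart BECs (SD, n = 12). Its lowest cardiomyocyte library (64.0 TPM) exceeded the highest heart BEC library (26.5 TPM), and all other neighbours overlapped. Ly96 had a mean of 56.0 ± 12.8 TPM in diaphragm LECs, 47.7 ± 10.1 in heart LECs, 37.3 ± 8.44 in heart BECs and 13.7 ± 3.33 in cardiomyocytes. The endothelial ranges of Ly96 overlapped, and all lay above the cardiomyocyte range, whose highest library had 19.8 TPM. Diaphragm LECs, the population with the least Tlr4, thus held the highest mean of Ly96 and the highest endothelial mean of Cd14.

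Of the signalling genes, Myd88 was the most abundant member in heart BECs, with 138 ± 34.3 TPM against 57.7 ± 18.6 in heart LECs, 51.3 ± 12.4 in cardiomyocytes and 50.0 ± 9.24 in diaphragm LECs (SD, n = 12). Irak2, a kinase of the Myd88 complex, was at 66.0 ± 13.5 TPM in heart BECs, 29.5 ± 9.54 in heart LECs, 28.6 ± 11.5 in their diaphragm counterparts and 13.7 ± 3.14 in cardiomyocytes. For both genes the populations below the heart BECs overlapped their neighbours. Ticam1 was low everywhere, with means between 3.52 and 5.87 TPM, and all 4 populations overlapped.

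**Figure D1:**
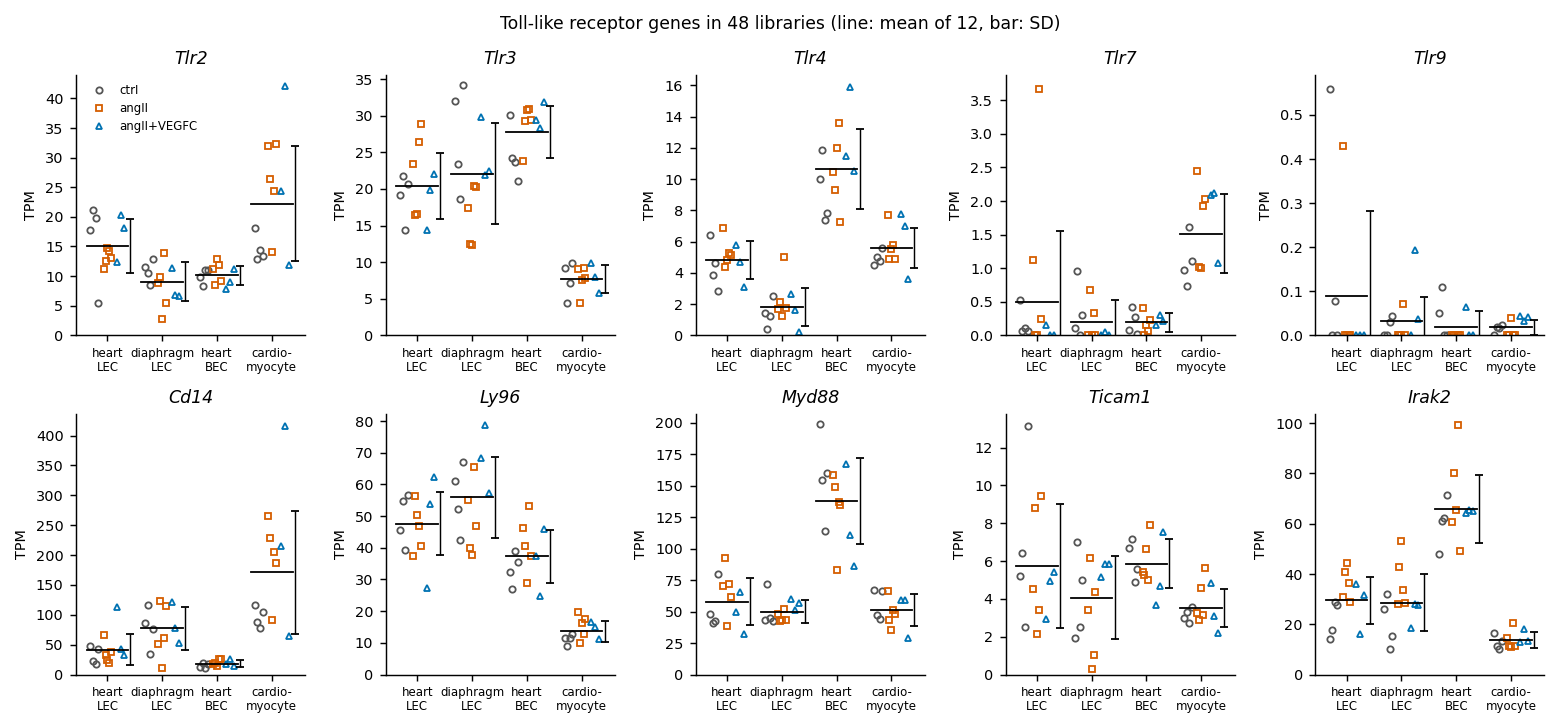
TPM of each of the 10 genes (vertical axis, linear, one scale per panel) in the 4 populations, with 1 point per library, coloured and shaped by treatment. Lines are means of 12 libraries and bars 1 SD, cut off at 0. Myd88, Irak2, Tlr3 and Tlr4 have their highest mean in heart BECs, Cd14 and Tlr2 in cardiomyocyte libraries, and Ly96 in diaphragm LECs.

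Heart LECs and heart BECs of the same mice were compared over all 3 treatments in limma, on log2(TPM + 1), with Benjamini-Hochberg adjustment over 32754 genes. The main fit held no term for the mouse, here and in the other population and interaction comparisons, so it did not use the pairing. A gene was called at an adjusted p under 0.05. Of the 10 members 8 passed the filter on low values, Tlr7 and Tlr9 did not, and 5 were called, 1 higher and 4 lower in LECs. The background was 17.6% of all genes called, 8.94% higher and 8.64% lower in LECs. Myd88 was lower in LECs by a log2 difference of -1.29 (SE 0.149, adjusted p = 2.4e-08), in 12 of 12 mice. Irak2 was lower by -1.22 (SE 0.164, adjusted p = 4.99e-07) and Tlr4 by -1.04 (SE 0.203, adjusted p = 0.000211), each in 12 of 12 mice and with no overlap between the libraries of the 2 populations. Tlr3 differed less, by -0.47 (SE 0.135, adjusted p = 0.0116), again in 12 of 12 mice.

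Cd14 ran in the other direction, with a log2 difference of 1.07 (SE 0.294, adjusted p = 0.00822) and the higher value in the LECs of 11 of 12 mice. Macrophages are known to be rich in Cd14. The summed macrophage markers were 40.7 to 410 TPM in heart LECs and 33.1 to 116 TPM in heart BECs. The markers did not move together. Mrc1 had a median of 24.1 TPM in heart LECs against 0.707 in heart BECs, and Fcer1g 21.0 against 3.68. Lower medians in heart LECs included those of C1qb (0.977 against 5.88 TPM), C1qc (1.74 against 3.38) and Lyz2 (23.6 against 24.8). The part of macrophages in the Cd14 result was not tested. Without mouse 2 the adjusted p was 0.0619 for Cd14 and 0.0582 for Tlr3, at differences of 0.89 and -0.42. Tlr2 was higher in the LECs of 10 of 12 mice, by 0.51 (SE 0.202, adjusted p = 0.0771), and passed the threshold with the mouse as a replicate block (adjusted p = 0.0447). Ly96 differed by 0.36 (adjusted p = 0.0676) and Ticam1 by -0.14 (95% interval -0.67 to 0.39), and neither was called.

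The 5 called differences kept their sign within each of the 2 sequencing sets and within each treatment. Within set 1 and set 2 the log2 difference was -1.26 and -1.27 for Myd88, -1.16 and -1.21 for Irak2, and -0.81 and -1.19 for Tlr4. For Cd14 it was 1.07 and 0.94, and for Tlr3 -0.45 and -0.45. In the ctrl libraries alone, with 4 mice, 2 members were called, and Tlr3, Tlr4 and Cd14 were not, at differences of -0.37, -0.94 and 1.01. In bulk libraries, fewer cells with a transcript and less transcript per cell cannot be told apart.

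Heart LECs and diaphragm LECs, from 2 organs of the same mice where both were sequenced, were fitted in the same model. Tlr4 was higher in heart LECs by 1.14 (SE 0.204, adjusted p = 0.000297), in 11 of 11 mice, and Tlr2 by 0.71 (SE 0.202, adjusted p = 0.0351), in 10 of 11 mice. These were the 2 of 8 tested members called, against 4.56% of all genes, of which 2.67% were higher and 1.88% lower in heart LECs. The call of Tlr2 was lost with the mouse as a replicate block (0.60, adjusted p = 0.0526) and without any 1 of 7 mice (1, 5, 6, 8, 9, 12 and 14), and it was 1.12 in sequencing set 1 and 0.27 in set 2. Tlr4 was at 1.36 and 0.90 in the same sets. The 6 blood endothelial markers summed to 1249 to 7802 TPM in heart LECs and to 479 to 1476 TPM in diaphragm LECs. Tlr4 is higher in heart BECs than in either population, and the part of such cells in its difference was not tested.

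Cd14 was lower in heart LECs in 10 of 11 mice, by -0.83 (SE 0.295, adjusted p = 0.11), and a replicate block for the mouse gave a called difference of -0.98 (adjusted p = 0.00248). It was also called without mouse 4 (adjusted p = 0.0085), whose diaphragm library has no heart library beside it. Myd88 and Irak2 differed by 0.10 (95% interval -0.20 to 0.40) and 0.09 (95% interval -0.25 to 0.42). The intervals of Tlr3 (-0.42 to 0.13), Ly96 (-0.54 to 0.02) and Ticam1 (-0.16 to 0.90) also reached 0.

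Cardiomyocyte libraries were compared with the heart BECs of the same mice, although cell type, isolation and sequencing set differ together in this comparison and cannot be told apart. All 9 members tested were called, where 74.8% of 23213 genes were called, 10.8% higher and 64.1% lower in cardiomyocytes, and the median difference of all genes was -0.61. Cd14 was higher by 3.00 (SE 0.230, adjusted p = 3.84e-11), Tlr7 by 1.04 (SE 0.136, adjusted p = 3.15e-07) and Tlr2 by 0.96 (SE 0.162, adjusted p = 1.22e-05), each in 12 of 12 mice. Tlr7 passed the filter only through cardiomyocyte libraries, of which 10 reached 1 TPM, against 0 of the heart BEC libraries. Its call as higher was therefore largely set by the filter. Irak2 was lower by -2.17, Tlr3 by -1.75, Myd88 by -1.39 and Ly96 by -1.38, each in 12 of 12 mice. Tlr4 (-0.83) and Ticam1 (-0.61) stood beside that median and were not called after quantile normalization (-0.24 and -0.11). Markers of other cell types were also higher in cardiomyocyte libraries. The macrophage markers summed to a median of 1392 TPM there and 53.6 TPM in heart BECs, and the fibroblast markers to 3151 and 617 TPM. Those of pericytes and smooth muscle summed to 928 and 255 TPM. The part of all those cells in the differences of the members was not tested.

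**Figure D2:**
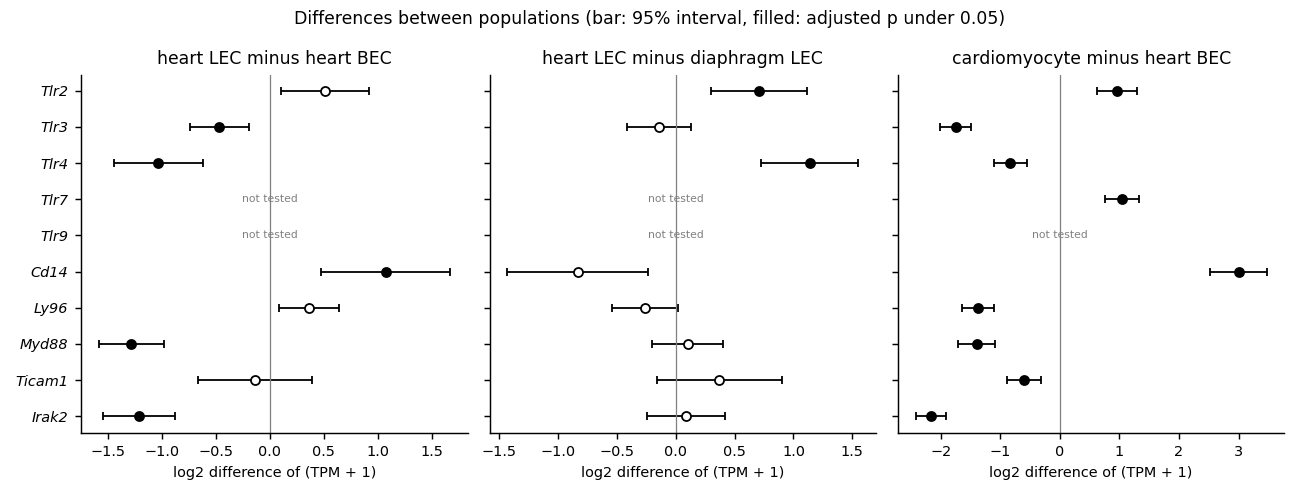
Log2 difference of TPM + 1 between populations for each member (horizontal axis), with 95% intervals. Filled points have an adjusted p under 0.05 in limma. Myd88, Irak2, Tlr4 and Tlr3 lie below 0 and Cd14 above 0 for heart LECs against heart BECs, Tlr4 and Tlr2 lie above 0 for heart against diaphragm LECs, and all 9 tested members are filled for cardiomyocytes against heart BECs.

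The response to angiotensin II was tested within each population, with 8 members passing the filter in each endothelial population and 9 in cardiomyocytes. In angII against ctrl, 0 members were called in any population by limma, and at an unadjusted p under 0.05 there were 2 in cardiomyocytes, 2 in diaphragm LECs, 1 in heart LECs and 0 in heart BECs. Of all genes, 0.0261% were called in heart LECs and 0.0892% in cardiomyocytes, with 0% in both diaphragm LECs and heart BECs. In the order heart LEC, diaphragm LEC, heart BEC and cardiomyocyte, 10.9%, 15.3%, 5.4% and 9.85% were at an unadjusted p under 0.05. The median log2 difference of the members was 0.18, -0.24, 0.20 and 0.17 in the same order, beside 0.23, 0.28, -0.06 and 0.12 for all genes.

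Irak2 was the member at an unadjusted p under 0.05 in both LEC populations. In heart LECs its level was 14.1, 17.9, 28.8 and 27.5 TPM in the ctrl libraries, 30.9, 40.6, 44.4, 36.4 and 28.9 TPM in the angII libraries, and 36.1, 16.0 and 31.8 TPM in the angII+VEGFC libraries. The ctrl and angII libraries did not overlap, although the nearest pair differed by little, and the angII+VEGFC libraries lay across both. The log2 difference between angII and ctrl was 0.66 (SE 0.268, adjusted p = 0.395 in limma), and 2.62% of the genes tested in heart LECs had no overlap between these groups. The 6 blood endothelial markers, a cell type in which Irak2 is higher, also differed between these libraries, with sums of 1249 to 2736 TPM in ctrl, 2850 to 7802 TPM in angII and 1701 to 2108 TPM in angII+VEGFC. Their part in the result was not tested.

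In diaphragm LECs Irak2 was at 26.0, 32.0, 10.2 and 15.4 TPM in ctrl, at 28.0, 42.7, 53.1, 33.5 and 28.5 TPM in angII, and at 18.6, 28.1 and 27.7 TPM in angII+VEGFC. The highest ctrl library lay within the angII range, and the highest angII+VEGFC library lay just above the lowest angII library. The log2 difference was 0.90 (SE 0.244, adjusted p = 0.297) for angII against ctrl and -0.84 (SE 0.281, adjusted p = 0.567) for angII+VEGFC against angII, and both comparisons share the angII libraries. The diaphragm libraries with angII held 20062 to 23691 genes at 1 TPM or more, the ctrl libraries 12924 to 18116 and the angII+VEGFC libraries 14963 to 18373, so that the angII libraries overlapped neither group. With the number of detected genes as a covariate the Irak2 difference was 0.92 (adjusted p = 0.99998 in limma) for angII against ctrl. For angII+VEGFC against angII it was -0.86 (adjusted p = 0.999997), and neither was called. The 12 macrophage markers summed to 94.0 to 250.1 TPM in ctrl, 189 to 437 TPM in angII and 80.0 to 93.2 TPM in angII+VEGFC, the last without overlap with angII, and 5 of the 12 were at an unadjusted p under 0.05 and 0 called by limma in angII+VEGFC against angII. The 6 cardiomyocyte markers, of which 5 were at an unadjusted p under 0.05 and 0 called in the same comparison, summed to 4.90 to 320 TPM, 12.4 to 414 TPM and 4.34 to 16.0 TPM in the same order of groups. Mrc1, listed among the macrophage markers, was at 25.6 to 64.1 TPM over the 12 diaphragm LEC libraries. Its median was 44.2 TPM there and 8.62 TPM in the cardiomyocyte libraries, which held the larger macrophage sum, so Mrc1 did not follow that sum. The part of macrophages and cardiomyocytes in the Irak2 differences, and in those of Tlr3 in the same libraries, was not tested. The ctrl library at 10.2 TPM, replicate 3, also held the neutrophil markers at 141 TPM, against 0.0368 to 3.72 TPM in the other 11 diaphragm libraries, and without it the difference was 0.77.

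Tlr3 in diaphragm LECs was at 32.0, 23.4, 18.6 and 34.1 TPM in ctrl, 17.4, 12.5, 12.3, 20.4 and 20.2 TPM in angII, and 29.8, 21.9 and 22.5 TPM in angII+VEGFC. The angII libraries lay below all angII+VEGFC libraries and, except for ctrl replicate 3 at 18.6 TPM, below the ctrl libraries. That replicate is the library with 141 TPM of neutrophil markers, and without it the difference between angII and ctrl was -0.97 (adjusted p = 0.655). Over all libraries the log2 difference was -0.65 (SE 0.266, adjusted p = 0.304) for angII against ctrl and 0.59 (SE 0.307, adjusted p = 0.576) for angII+VEGFC against angII, and 8.69% of the genes tested had no overlap in the second comparison. In heart LECs Tlr3 was at 19.2, 21.8, 14.5 and 20.7 TPM in ctrl, at 23.4, 16.5, 16.6, 26.4 and 28.9 TPM in angII, and at 14.4, 19.9 and 22.0 TPM in angII+VEGFC, with overlap among all 3 groups. The heart LEC differences were 0.27 (95% interval -0.35 to 0.89) and -0.39 (95% interval -1.12 to 0.34).

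Tlr4 in heart LECs was at 6.40, 3.86, 4.60 and 2.84 TPM in ctrl, at 6.85, 4.39, 4.81, 5.30 and 5.13 TPM in angII, and at 5.76, 4.71 and 3.08 TPM in angII+VEGFC. The 3 groups overlapped, with differences of 0.23 (95% interval -0.70 to 1.15) for angII against ctrl and -0.16 (95% interval -1.26 to 0.94) for angII+VEGFC against angII. The second changed sign after quantile normalization (0.34) and with the number of detected genes as a covariate (0.11).

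In cardiomyocyte libraries Cd14 and Tlr2 were the members at an unadjusted p under 0.05. Cd14 was at 116, 87.9, 77.1 and 104 TPM in ctrl, at 265, 229, 91.4, 204 and 187 TPM in angII, and at 215, 416 and 64.0 TPM in angII+VEGFC. Tlr2 was at 18.1, 12.9, 14.4 and 13.4 TPM in ctrl, at 32.0, 26.4, 14.0, 24.3 and 32.3 TPM in angII, and at 24.5, 42.1 and 11.9 TPM in angII+VEGFC. For both genes 4 of 5 angII libraries exceeded all ctrl libraries and replicate 3 did not, and replicate 3 of angII+VEGFC was the lowest library of all. The log2 difference between angII and ctrl was 0.99 (SE 0.425, adjusted p = 0.458) for Cd14 and 0.77 (SE 0.310, adjusted p = 0.421) for Tlr2.

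With the number of detected genes as a covariate both were called, at 1.21 (adjusted p = 0.0462) and 0.92 (adjusted p = 0.0446). The share of all genes called with that covariate was not recorded, so these calls have no background beside them. The 12 macrophage markers were all detected and summed to 832 to 1066 TPM in ctrl, 1377 to 2415 TPM in angII and 1309 to 2865 TPM in angII+VEGFC. Of these 12, 11 were at an unadjusted p under 0.05 in angII against ctrl and 0 were called. The 5 fibroblast markers summed to 2116 to 3068 TPM in ctrl, 3060 to 4489 TPM in angII and 3052 to 4672 TPM in angII+VEGFC. The part of macrophages and of fibroblasts in the Cd14 and Tlr2 values was not tested. The library with the highest macrophage sum, angII+VEGFC replicate 2 at 2865 TPM, had the highest Cd14 and Tlr2. In contrast, replicate 3 of angII+VEGFC and of angII had macrophage sums of 1309 and 1407 TPM, above every ctrl library, and values of both genes within or below the ctrl range.

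**Figure D3:**
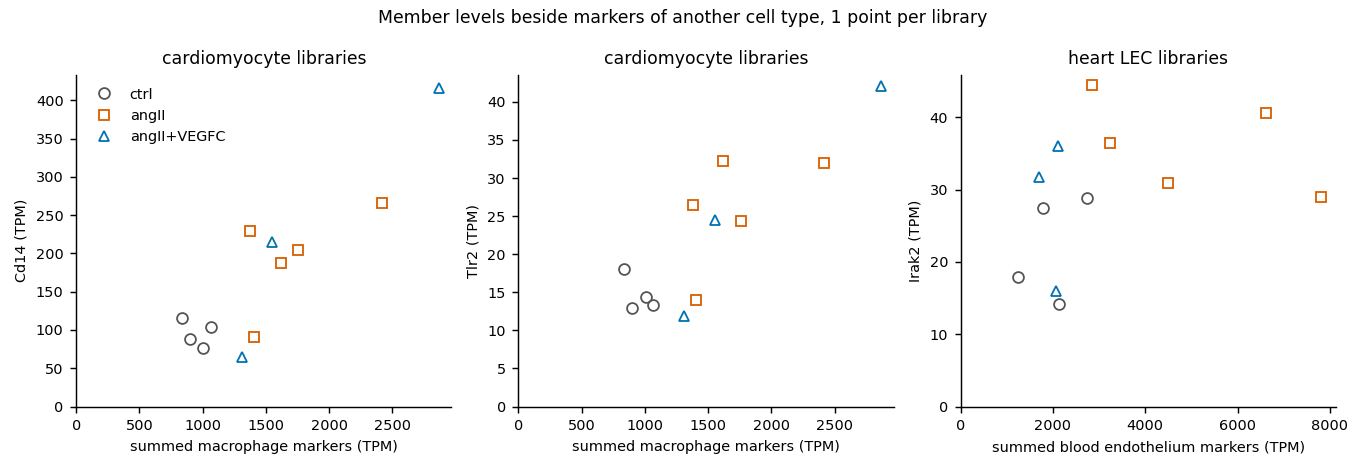
TPM of Cd14 and Tlr2 in the 12 cardiomyocyte libraries against the summed TPM of 12 macrophage markers, and TPM of Irak2 in the 12 heart LEC libraries against the summed TPM of 6 blood endothelial markers, with 1 point per library and all axes linear from 0. The angII+VEGFC library with 2865 TPM of macrophage markers has the highest Cd14 and Tlr2, the one with 1309 TPM has the lowest of both although its macrophage sum exceeds every ctrl library, and the angII libraries of heart LECs all lie to the right of the ctrl libraries.

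Adding VEGFCc156s to angiotensin II gave 0 called members in each population, with 1 at an unadjusted p under 0.05 in diaphragm LECs (Irak2) and 0 in each of the other populations. No gene was called in this comparison in any population (0%), and, in the order above, 10.8%, 8.78%, 2.59% and 2.41% of genes were at an unadjusted p under 0.05. The median log2 difference of the members was -0.22, 0.30, -0.16 and -0.06 in that order, beside -0.37, -0.21, 0.03 and -0.03 for all genes. Between angII+VEGFC and ctrl 0 members were called and 0 were at an unadjusted p under 0.05 in any population. Here 0%, 0%, 0% and 0.663% of genes were called and 4.94%, 1.32%, 5.51% and 12.9% were at an unadjusted p under 0.05. The comparisons share libraries and do not count as separate evidence.

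The remaining members showed differences whose 95% intervals included 0. In angII against ctrl, Myd88 was at 0.34 in heart LECs (95% interval -0.29 to 0.98) and between -0.20 and -0.10 elsewhere. Ly96 lay between -0.18 and 0.38 and Ticam1 between -0.43 and 0.17 over the 4 populations. Cd14 in heart LECs was at 112 TPM in 1 angII+VEGFC library, against 17.4 to 65.9 TPM in the other 11, and that library held the highest macrophage sum of the heart LECs, 410 TPM. The library with the next highest sum, angII replicate 3 at 304 TPM, had only 24.9 TPM of Cd14.

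**Figure D4:**
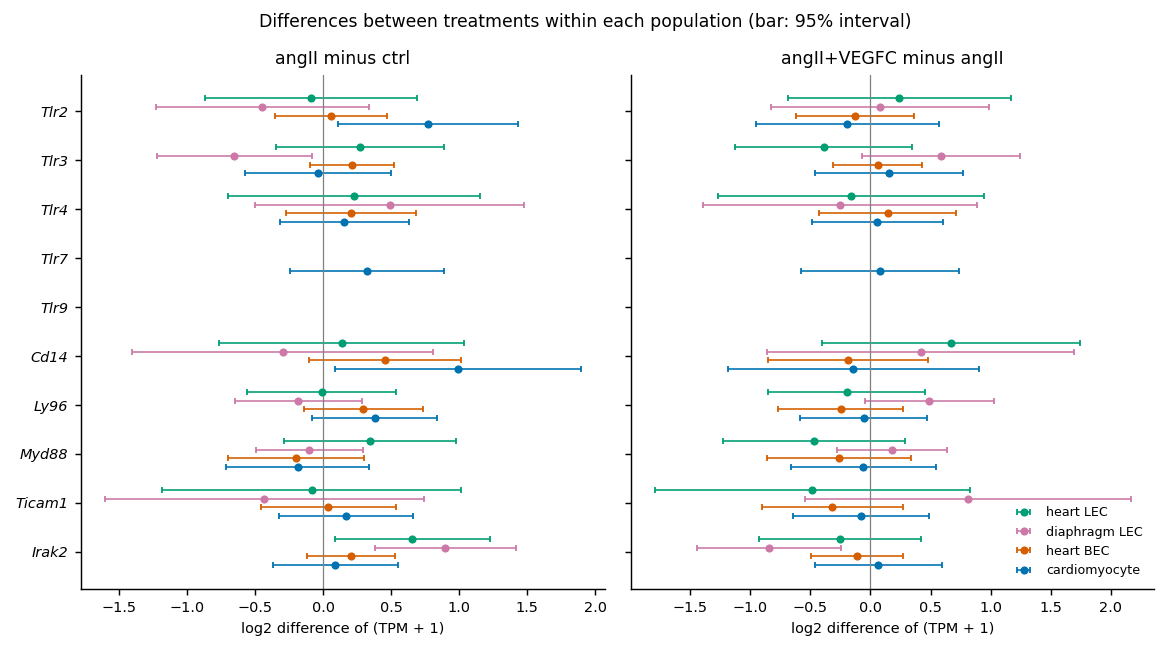
Log2 difference of TPM + 1 between treatments within each population (horizontal axis, with 95% intervals) for each member, with 1 colour per population. The intervals clear of 0 are those of Irak2 in both LEC populations, Tlr3 in diaphragm LECs, and Cd14 and Tlr2 in cardiomyocytes for angII against ctrl, and that of Irak2 in diaphragm LECs for angII+VEGFC against angII.

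Whether the response differed between endothelial populations was tested by interaction contrasts over the 36 endothelial libraries. For angII against ctrl, 0 members were called in heart LECs against heart BECs, diaphragm LECs against heart BECs, and heart against diaphragm LECs, and 0, 1 and 1 were at an unadjusted p under 0.05. The background was 0%, 0% and 0.00611% of genes called and 7.19%, 11% and 9.7% at an unadjusted p under 0.05. The member concerned was Tlr3, whose angII response in diaphragm LECs differed by -0.89 (SE 0.307, adjusted p = 0.386) from that in heart BECs, and whose response in heart LECs differed by 0.88 (SE 0.307, adjusted p = 0.383) from that in diaphragm LECs. The Irak2 response was not at an unadjusted p under 0.05 in any interaction. For angII+VEGFC against angII, 0 members were called in the same 3 contrasts, 0, 1 and 2 were at an unadjusted p under 0.05 (Ly96 at 0.71, then Tlr3 at -0.80 and Myd88 at -0.75), and 0% of genes were called, with 6.43%, 7% and 4.88% at an unadjusted p under 0.05.

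The other genes of the pathway were taken from 7 lists with 64 genes. The counts for heart LECs against heart BECs stand beside 8.94% of all genes called higher and 8.64% lower. In heart LECs against heart BECs, the receptor accessory proteins had 2 called higher and 1 lower of 7 tested. Lbp, which delivers lipopolysaccharide to Cd14, was at 609 ± 88.1 TPM in diaphragm LECs and 399 ± 99.9 in heart LECs, but at 39.6 ± 13.1 in heart BECs and 21.6 ± 5.45 in cardiomyocytes (SD, n = 12). It was higher in heart LECs than in heart BECs by 3.33 (adjusted p = 1.89e-19), with no overlap, and lower than in diaphragm LECs by -0.63 (adjusted p = 0.00319). Cd36, a fatty acid transporter that also serves Tlr2, was lower in heart LECs than in heart BECs by -3.04 (adjusted p = 1.36e-14) and higher than in diaphragm LECs by 2.15 (adjusted p = 6.45e-10). It is the accessory protein called lower, and it is also 1 of the 6 blood endothelial markers used here. Its differences are therefore not separate from those of the cell type markers. The chaperone of the receptors Cnpy3 was higher in heart LECs than in heart BECs by 0.57 (adjusted p = 0.0018).

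Of the 3 other adaptors, Ticam2, which bridges Tlr4 to Ticam1, was higher in heart LECs than in heart BECs by 1.06 (adjusted p = 0.00355) and Tirap, which bridges Tlr2 and Tlr4 to Myd88, was lower by -0.96 (adjusted p = 0.00618). Ticam2 was low, with means of 2.22 and 0.307 TPM. Its heart BEC mean is below the filter of 1 TPM, so its call as higher may in part be set by the filter. Of 17 kinases and ubiquitin ligases, 1 was called higher and 5 lower (all genes 8.94% and 8.64%), with Ikbke at 1.84, Irak3 at -1.07 and Ripk1 at -0.67. Of 8 transcription factors, 4 were called lower, led by the interferon regulatory factor Irf7 (means of 38.6 and 150.2 TPM, adjusted p = 3.23e-11), then Rel at -0.94 and Nfkb2 at -0.63. Of 7 negative regulators, 4 were called lower, with Zc3h12a at -0.76, Sigirr at -0.66 and Tnfaip3 at -0.41. None of the 6 other receptors tested was called by limma, and 0 were at an unadjusted p under 0.05.

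The response genes, cytokines and adhesion molecules that the pathway can induce, had 1 called higher and 10 lower of 15, with a median of -1.42 beside 0.15 for all genes. The chemokine Cxcl10 was lower in heart LECs by -3.42 (adjusted p = 3.02e-08), the cytokine Il6 by -2.23 and the chemokine Cxcl1 by -2.17. Between heart and diaphragm LECs 3 of 15 response genes were called higher and 2 lower, beside 2.67% and 1.88% of all genes. The adhesion molecule Vcam1 (2.01) and the prostaglandin synthase Ptgs2 (1.99) were higher in heart LECs, and Il6 was lower (-1.76). Tnfaip3, which removes ubiquitin from NF-κB signalling complexes, was lower in heart LECs by -1.38 (adjusted p = 1.01e-08), the NF-κB inhibitor Nfkbia by -0.57, and the kinase adaptor Tab3 by -0.97, while Irf7 was higher by 0.68.

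In cardiomyocytes against heart BECs, 15 of 17 kinases and ubiquitin ligases, 7 of 8 transcription factors and 7 of 7 negative regulators were called lower. Of all genes, 64.1% were called lower and 10.8% higher. Irf5 (2.16), the Cd180 partner Ly86 (2.52), Tlr13 (0.90) and Tlr8 (0.76) were called higher, as were 11 of the 12 macrophage markers. Ticam2 (0.65) was also called higher, with the limit of its low heart BEC level given above, while Tlr6 (-0.39), Cd36 (-2.54), Hsp90b1 (-0.85) and Tirap (-1.32) were called lower. Among the treatment comparisons and the interactions, 0 genes of the 7 lists were called by limma, and between 0 and 10 of the 56 to 63 tested were at an unadjusted p under 0.05.

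Over the 48 libraries, the genes whose log2(TPM + 1) followed the members most closely, among 12731 with a mean of at least 5 TPM in a population, were Gimap6 for Tlr3 (Pearson r = 0.93), Tmem47 for Tlr4 (0.89), Clic4 for Myd88 (0.91), Plcb4 for Irak2 (0.90), Acly for Ly96 (0.94) and Lgals3 for Cd14 (0.82). Tlr2 and Ticam1 had no gene above 0.73 (Mrps23) and 0.68 (Dmac1). The libraries share populations and mice, so the values describe which genes change with the population and not independent likeness.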

How the data were processed

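RNA-seq was made from 2 ng of RNA per library. The authors aligned the reads to GRCm38 with STAR 2.5.3a, quantified Ensembl release 95 transcripts with Salmon 0.12.0 and deposited a matrix of gene-level TPM values. TPM keeps no counts, so count tests were not used and precision rests on the number of libraries. Library groups, mice, ages and sequencing sets came from the labels. The members and gene lists were chosen with earlier results of these data known.

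Values were transformed to log2(TPM + 1), and fold changes on this scale understate those of low genes. A gene entered a fit if 3 or more of its libraries reached 1 TPM. Fits used limma (version 3.58.1, under R 4.3.3) with a mean-variance trend, with age and sequencing set as covariates (age alone where cardiomyocytes entered), and adjusted by Benjamini-Hochberg. The code was tested on simulated data. Figures and descriptions used Python 3.11.15 and matplotlib 3.10.9.

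Mouse numbers pair the populations, because libraries with the same number come from the same animal. Over 34 pairs of endothelial libraries of a mouse the deviations from group means correlated at 0.0696 on average, against -0.00541 for 398 pairs of different mice. No 2 libraries held identical values. Pathway genes were named as the up to 3 per list with the largest absolute difference among those called, and genes alike by the highest Pearson correlation. Alternatives were a pseudocount of 0.1, no filter, no covariates, quantile normalization, detected genes or a residual component as covariate, a fit of 2 groups, ctrl libraries, the mouse as a block, and leaving out each library or mouse.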

Additional observations from a re-analysis of the deposited data

Results flagged for a closer look

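Groups of 4 or 5 libraries were screened for a library far from the others by Dixon's ratio at the 95% level, in 67 combinations of gene, population and treatment that reached 1 TPM, and 3 exceeded the critical value. Chance gives about 1 in 20. Tlr3 in heart BECs of the angII group was at 23.8 TPM in replicate 1, against 29.2 to 30.9 TPM in the other 4. Tlr4 in diaphragm LECs of the angII group was at 4.98 TPM in replicate 4, against 1.20 to 2.13 TPM in the others. Myd88 in diaphragm LECs of the ctrl group was at 72.3 TPM in replicate 2, against 42.8 to 45.1 TPM in the others.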

How the results depend on the processing

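The counts of called members in heart LECs against heart BECs (5), in cardiomyocytes against heart BECs (9), in the interactions (0) and in the other treatment comparisons (0) stayed within 1.5 times under the alternatives that could be run, except that heart LECs against heart BECs gave 2 in ctrl libraries alone, a fit with fewer samples. For heart against diaphragm LECs the count of 2 became 1 without the filter, after quantile normalization and with detected genes as a covariate, 0 in ctrl libraries, and 1 to 3 when each mouse was left out, with 3 without mouse 4. In cardiomyocytes the count of 0 became 2 for angII against ctrl and 1 for angII+VEGFC against ctrl with detected genes as a covariate, and it was 0 to 2 for angII+VEGFC against ctrl when each library was left out, with 2 without angII+VEGFC replicate 3. The share of all genes called was not recorded for the alternative fits, and the cause of these changes was not tested. The replicate block, with the mouse as a fixed term, gave 6, 2 and 9 called members in the 3 population comparisons (the added call in the first is Tlr2 at adjusted p = 0.0447) and 0 in the interactions, and changed no other call than those given for Tlr2 and Cd14. Signs turned in small differences: Tlr4 in heart LECs for angII+VEGFC against angII (0.34 after quantile normalization, 0.11 with detected genes), Ticam1 in heart LECs against heart BECs (0.021 with detected genes) and Irak2 in cardiomyocytes for angII against ctrl (-0.055 after quantile normalization, -0.056 to 0.18 leaving out each library). Leaving out each library or mouse, Irak2 ranged from -0.38 to 0.0086 in heart LECs, -0.30 to 0.068 in heart BECs and -0.042 to 0.18 in cardiomyocytes for angII+VEGFC against angII, and from -0.052 to 0.23 in heart against diaphragm LECs. Ly96 in heart LECs against heart BECs was called after quantile normalization (0.40, adjusted p = 0.0365) and without mouse 2 or mouse 9, and Tlr2 without mouse 4 or mouse 11. Depth is unknown from TPM, so levels near 1 TPM, as for Tlr7 and Tlr9, carry an unstated counting error.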
